A study of Mus musculus with 18 samples.

Results

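The D-type cyclins and the proteins that act with them at the G1 phase of the cell cycle were followed through the brains of Brca1 conditional knockout mice. The set was made of 9 genes, among 18193 genes with a probe set of their own in the series: the cyclins Ccnd1, Ccnd2 and Ccnd3, the kinases Cdk4 and Cdk6, the inhibitors Cdkn1b, Cdkn1c and Cdkn2c, and the retinoblastoma gene Rb1. Every probe set annotated to exactly 1 of these genes was taken, which gave 25 of 45037 probe sets. The A chip used for cortex holds 20 of these and its companion B chip 5, and the array used for the samples titled rest holds all 25.

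D-type cyclins are made when growth signals reach a cell. They bind and activate CDK4 and CDK6, which phosphorylate the retinoblastoma protein and so release E2F transcription factors that start DNA synthesis. Cdkn2c encodes p18, an INK4 inhibitor that binds CDK4 and CDK6, and Cdkn1b and Cdkn1c encode p27 and p57, inhibitors of the Cip/Kip family that act in cells leaving the cycle. In the developing mouse brain Ccnd1 and Ccnd2 are known from neural progenitors and from cerebellar granule cell precursors, while p27 accumulates in neurons and oligodendrocytes as they stop dividing.

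In the knockout mice 1 copy of Brca1 is floxed around exons 5 to 13, and the other is null through a neo cassette that lies inverted in exon 11. The Cre transgene is nestin-Cre, expressed in neural progenitors, so that vessels, meninges and microglia are not its main target. The controls are called wildtype, and whether they carry Cre or a floxed allele is not given. All tissue was taken at postnatal day 7, and 3 knockout and 3 wild-type arrays were made for each of 3 tables: cortex on the A chip, cortex on the B chip, and rest, with the source given only as P7 brain. Nothing in the labels says whether the cortex and rest samples came from the same animals, and p-values measure the spread between these samples.

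Signals are MAS5 probe set signals scaled within a table, and a log2 change is the mean of log2(signal + 16) over knockout arrays less that over wild-type arrays, which understates the change of dim probe sets. SE is its standard error in limma. A probe set was tested where at least 2 arrays of each genotype listed it, and called at a limma p under 0.05 after adjustment over all probe sets tested in its table. Blank cells are common: an array listed 54% to 58% of the A chip, 33.6% to 42.6% of the B chip and 49.2% to 51.6% of the rest array. The Brca1 probe set listed on all arrays read 52.3 in knockout and 41.3 in wild-type cortex on average, which differ by 0.25 on the log2 scale (SE 0.159, limma adjusted p = 0.496), and which exons it reads is not given. In rest it averaged 113.1 in knockout and 109.3 in wild type (log2 change 0.03, SE 0.17, limma adjusted p = 0.978). A lower Brca1 signal in knockout was thus seen in neither tissue. The Y-linked transcript Eif2s3y was listed on 2 of the 3 knockout arrays and 0 of the wild-type arrays in each table, so that genotype and sex are partly joined. Markers of cortical projection neurons were present in cortex: of 10 on the A chip, 9 could be tested and 0 were blank throughout. Of 12 on the rest array 10 could be tested and only Emx1 was blank throughout, so that their presence does not set cortex apart. The number of arrays limits the precision of every value.

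In knockout cortex Cdkn1c rose by 1.55-fold, and Ccnd1 rose by 1.40-fold on 1 of its 3 probe sets. The others read 1.14-fold and 1.12-fold and were not called. The 3 brightest Ccnd2 probe sets read 1.37- to 1.42-fold higher and the Ccnd3 probe set 1.38-fold higher, but neither gene passed the test. Cdk4, Cdk6, Cdkn1b, Cdkn2c and Rb1 did not pass it either. Of 17 member probe sets tested on the A chip 2 were called, both up, against a background of 3.02% of all probe sets tested (2.3% up and 0.713% down). At an unadjusted p under 0.05 there were 6 of the 17, against 15.7% of all. Of the 15 listed on all arrays, 6 had every knockout array above every wild-type array, and 1 had every knockout array below. Over all probe sets of the A chip listed on all arrays the shares were 11% and 10.6%, and the 15 are not independent, since Ccnd2 alone gives 5 of them. The 17 log2 changes ran between -0.17 and 0.63 with a median of 0.19, against a median of -0.01 over all probe sets tested. These are bulk samples, in which fewer cells of a type and less RNA per cell cannot be told apart.

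**Figure D1:**
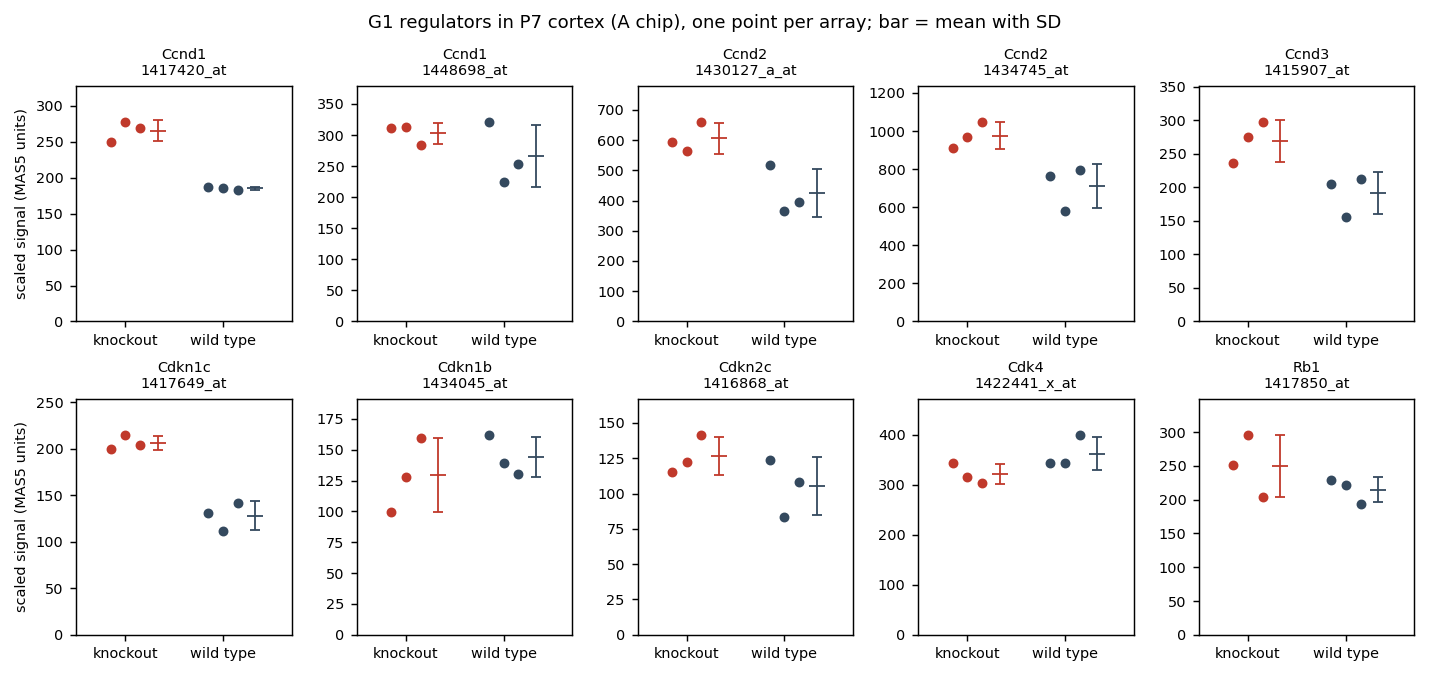
Scaled MAS5 signal (vertical axis, starting at 0) of 10 probe sets of the G1 regulators in cortex, with 1 point per array, knockout left of wild type, and the mean with its SD beside the points (n = 3 each). Knockout arrays lie above all wild-type arrays for Ccnd1 probe set 1417420_at, both Ccnd2 probe sets shown, Ccnd3 and Cdkn1c; the groups overlap for Ccnd1 probe set 1448698_at, Cdkn1b, Cdkn2c and Rb1, and Cdk4 lies slightly lower in knockout.

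Ccnd1 encodes cyclin D1 and was read by 3 probe sets that differed in their values. Probe set 1417420_at read 249, 278 and 269 in knockout cortex, against 187, 186 and 183 in wild-type cortex. Every knockout array lay above the wild-type arrays, which were within 4 units of each other. Its log2 change was 0.48 (SE 0.1, limma adjusted p = 0.026, higher in 3 of 3 knockout arrays). Probe set 1448698_at read 312, 313 and 283 in knockout cortex, against 321.5, 224 and 253 in wild-type cortex. Wild-type replicate 1 was the highest of these 6 arrays, and the log2 change was 0.19 (SE 0.129, 95% interval -0.09 to 0.48, limma adjusted p = 0.529). The dim probe set 1417419_at averaged 96.2 ± 35.8 in knockout cortex (SD, n = 3) and 81 ± 6.64 in wild-type cortex (n = 2, blank in replicate 2), 0.17 higher on the log2 scale (limma adjusted p = 0.794). The call for Ccnd1 therefore rests on 1 of its 3 probe sets. It was lost when any array other than knockout replicate 1 was left out (limma adjusted p from 0.0634 to 0.11), although the log2 change stayed between 0.45 and 0.49 in those fits. Quantile normalization and a block for replicate number also ended the call (limma adjusted p = 0.057 and 0.0635), and it held in 11 of 19 other settings in all. With a term for the sex-marker pattern, in which knockout replicate 3 alone is set against the wild type, the log2 change was 0.50 (limma adjusted p = 0.232).

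Ccnd2 encodes cyclin D2, known from intermediate neural progenitors and granule cell precursors, and was read by 7 probe sets. Probe set 1430127_a_at read 593, 563 and 661 in knockout cortex, against 516, 365 and 396 in wild-type cortex. Probe set 1416122_at read 769, 655 and 862 in knockout cortex, against 616, 460 and 533 in wild-type cortex. Probe set 1434745_at read 910.1, 969 and 1049 in knockout cortex, against 764, 579 and 794 in wild-type cortex. On all 3 the genotypes did not overlap, and wild-type replicate 2 was the lowest array. Their log2 changes were 0.50 (SE 0.124), 0.49 (SE 0.123) and 0.46 (SE 0.115), with limma adjusted p of 0.0582, 0.0611 and 0.0643, so that none was called. Each was called in a fit that left out 1 array: 1416122_at and 1430127_a_at without wild-type replicate 1 (limma adjusted p = 0.0447 and 0.0137) and 1434745_at without wild-type replicate 3 (0.0434). With a block for replicate number 1416122_at was called as well (limma adjusted p = 0.0286).

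The remaining Ccnd2 probe sets carried less signal or more spread. Probe set 1455956_x_at, whose suffix marks probes that can match other sequences, read 0.30 higher in knockout on the log2 scale (SE 0.148, limma adjusted p = 0.361). Probe set 1448229_s_at, whose suffix marks a match to more than 1 transcript sequence, read 141, 149 and 322 in knockout cortex, against 278, 164 and 110.1 in wild-type cortex, with a log2 change of 0.13 (SE 0.324). The genotypes overlapped on it, and knockout replicate 3 was the highest array. Probe set 1416124_at lay between 19 and 30.5 on the 5 arrays that listed it, and 1416123_at was listed only at 37.2 and 48.5 in knockout replicates 1 and 3 and could not be tested.

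Ccnd3 encodes cyclin D3 and has 1 probe set with a signal, 1415907_at. It read 236, 275 and 298 in knockout cortex, against 206, 155 and 212 in wild-type cortex. The genotypes did not overlap, and wild-type replicate 2 was again the lowest array. The log2 change was 0.47 (SE 0.138, 95% interval 0.17 to 0.77, limma adjusted p = 0.11), and over 19 other settings it was called in 0. The other Ccnd3 probe sets, 1438805_at and 1444323_at on the B chip, were blank on every array.

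No change was detected in the kinase partners of the D cyclins in cortex. Cdk4 was read by 3 probe sets. The brightest, 1422441_x_at, also has the suffix that marks probes that can match other sequences. It read 343.5, 316 and 304 in knockout cortex, against 343.7, 344 and 399.7 in wild-type cortex. Its log2 change was -0.17 (SE 0.0994), with a limma adjusted p of 0.471. All 3 knockout arrays lay below the wild-type arrays, the nearest pair by less than 1 unit. The other 2 Cdk4 probe sets, 1422439_a_at and 1422440_at, had log2 changes of -0.08 and 0.07, with groups that overlapped. Cdk6 was read on the B chip, where probe set 1435338_at read 272, 252 and 279 in knockout cortex and 304, 328 and 268 in wild-type cortex, and the log2 change was -0.15 (SE 0.173; limma adjusted p = 0.931). Probe set 1455287_at of Cdk6 had a log2 change of -0.02 (SE 0.164, 95% interval -0.38 to 0.33). Both Cdk6 probe sets overlapped between genotypes. On the B chip 0 of these 2 tested members were called by limma, and 0 had an unadjusted p under 0.05, against 0.281% of all probe sets tested that were called and 7.39% at an unadjusted p under 0.05.

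Of the inhibitors, Cdkn1c rose in cortex. The gene encodes p57, is imprinted, and is active in cells that leave the cycle. Probe set 1417649_at read 199.9, 215 and 204 in knockout cortex, against 132, 111 and 142 in wild-type cortex. The lowest knockout array was well above the highest wild-type array. Its log2 change was 0.63 (SE 0.121, 95% interval 0.37 to 0.90, limma adjusted p = 0.0172, higher in 3 of 3 knockout arrays). The call was lost without knockout replicate 2 (limma adjusted p = 0.081), knockout replicate 3 (0.0584), wild-type replicate 1 (0.0508) or wild-type replicate 2 (0.057) and with the sex-marker term (0.224), with log2 changes between 0.54 and 0.65.

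Cdkn1b, which encodes p27, read 99.7, 128 and 159.6 in knockout cortex, against 162, 139 and 130.3 in wild-type cortex on probe set 1434045_at. The groups overlapped, and the log2 change was -0.15 (SE 0.162, limma adjusted p = 0.715). Cdkn2c (1416868_at), which encodes p18, read 116, 122 and 142 in knockout cortex, against 124, 83.3 and 109 in wild-type cortex, differing by 0.24 on the log2 scale (SE 0.153, limma adjusted p = 0.491). Rb1 (1417850_at), the substrate of the cyclin D kinases, read 251, 296 and 204 in knockout cortex, against 229, 222 and 194 in wild-type cortex, differing by 0.19 (SE 0.137, limma adjusted p = 0.555). For all 3 genes at least 1 knockout array lay within the wild-type range or below it. The second Cdkn1b probe set, 1419497_at, and the A chip probe set of Cdk6, 1460291_at, were blank throughout, as was the B chip probe set of Rb1, 1444400_at.

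Single arrays stood out among the members. On the A chip, wild-type replicate 2 was the lowest of the 6 arrays on 8 of the 15 member probe sets listed on all arrays, among them those of Ccnd3, Cdkn1c and Cdkn2c, while it was the lowest on 17% of all such probe sets. Knockout replicate 3 was the highest array on 7 of the 15, against 15.1% of all. Several of the 8 and of the 7 are Ccnd2 probe sets, so they are not independent. Where every knockout array lies above the wild-type arrays, the lowest array is a wild-type one and the highest a knockout one by necessity. The shares over all probe sets are therefore no test. The part of these arrays in the results is given by the fits without them: without wild-type replicate 2 the log2 change of Ccnd3 was 0.34, that of Ccnd2 probe set 1430127_a_at was 0.40 and that of Cdkn1c was 0.54.

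In the rest samples 0 of 19 member probe sets were called by limma, and 4 had an unadjusted p under 0.05. The background in that table was 0.313% called (0.145% up and 0.168% down) and 10.5% at an unadjusted p under 0.05. The lowest adjusted p was that of Cdkn1b, followed by a Ccnd2 probe set, and both read lower in knockout. The log2 changes ran between -0.75 and 0.28 with a median of -0.08, against a median of 0.00 over all probe sets tested, and 12 of 19 were below 0, against 49.8% of all. Of the 18 member probe sets listed on all arrays, 0 had every knockout array above the wild-type arrays and 3 had every knockout array below (Cdkn1b, Ccnd2 probe set 1430127_a_at and Ccnd1 probe set 1417419_at). Over the table these shares were 8.19% each way.

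Cdkn1b read 145, 173 and 176 in knockout rest samples, against 283, 252 and 335 in wild-type rest samples. The groups were separated by more than the range of the knockout arrays. The log2 change was -0.75, or 0.593-fold (SE 0.138, 95% interval -1.06 to -0.45), with a limma adjusted p of 0.0613, lower in 3 of 3 knockout arrays. In none of 19 other settings was it called at 0.05; its limma adjusted p ranged from 0.0541 to 0.476 with the sex-marker term, and its log2 change from -0.85 to -0.63. At a threshold of 0.10 it was the only member called in that table.

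Ccnd2 probe set 1430127_a_at read 335, 256 and 337 in knockout rest samples, against 472, 446 and 422 in wild-type rest samples, so that the log2 change was -0.52 (SE 0.122, limma adjusted p = 0.155). The knockout arrays were all lower. The Ccnd2 probe sets did not move alike: 1448229_s_at had a log2 change of -0.70 (SE 0.249), 1416122_at of -0.29 (SE 0.132) and 1434745_at of 0.06 (SE 0.102), with limma adjusted p of 0.354, 0.481 and 0.898. On 1434745_at the knockout samples read 831, 693 and 796 and the wild-type samples 718, 679 and 833, so that the groups overlapped. Which stretch of the transcript each probe set reads is not given.

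**Figure D2:**
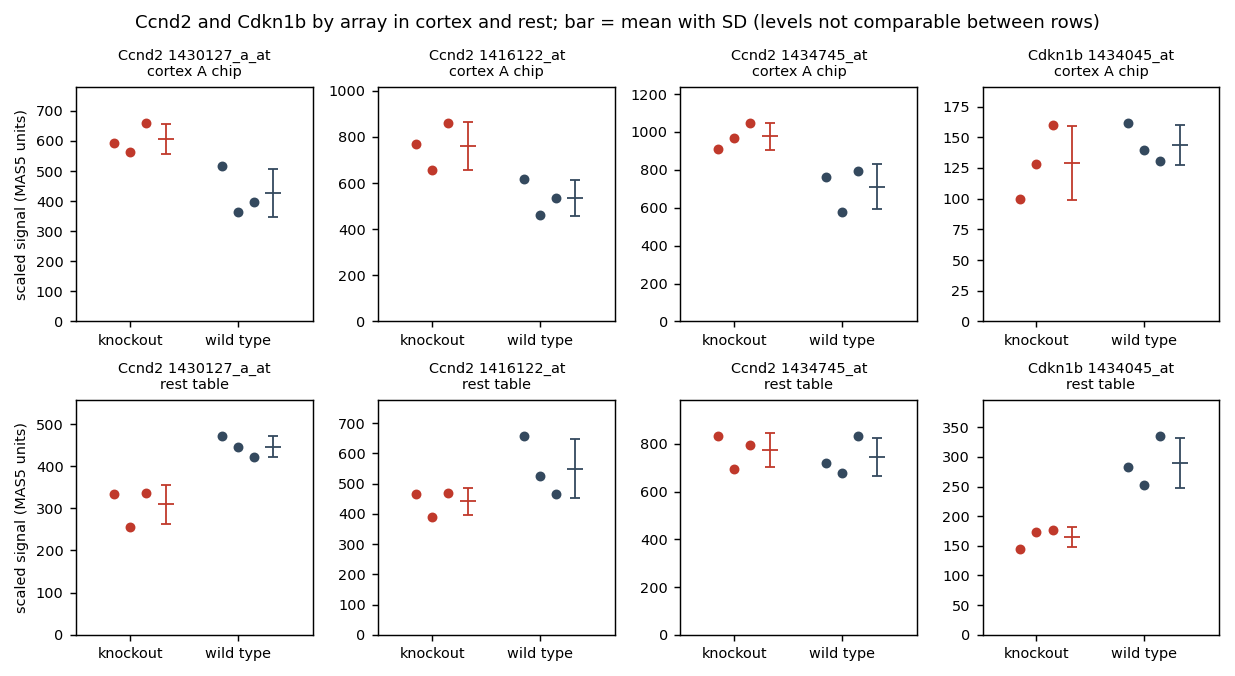
Scaled MAS5 signal (vertical axes, starting at 0) of 3 Ccnd2 probe sets and the Cdkn1b probe set, cortex in the upper row and rest in the lower, with 1 point per array, knockout left of wild type, and the mean with its SD (n = 3 each). Ccnd2 probe set 1430127_a_at is higher in all knockout cortex arrays (563 to 661) and lower in all knockout rest arrays (256 to 337) than in wild type, and Cdkn1b is apart only in rest.

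Ccnd1 in rest also depended on the probe set. Probe set 1417420_at read 418, 535 and 619.5 in knockout rest samples, against 432, 325 and 540.0 in wild-type rest samples (log2 change 0.28, SE 0.186, limma adjusted p = 0.658). Probe set 1448698_at had a log2 change of 0.12 (SE 0.105), and the dim 1417419_at read 58.6, 81.9 and 65.5 in knockout, against 115, 86.8 and 101.5 in wild type (log2 change -0.47, SE 0.167, limma adjusted p = 0.351). The first 2 overlapped between genotypes and the third did not. Cdkn1c read 223, 363 and 437.5 in knockout rest samples, against 413.5, 291 and 421 in wild-type rest samples, and the log2 change was -0.16 (SE 0.226, limma adjusted p = 0.859). Knockout replicate 1 was the lowest array and knockout replicate 3 the highest. Ccnd3 (-0.05), Rb1 (0.04) and Cdkn2c (0.23), the 3 Cdk4 probe sets (-0.19 to -0.08) and the 2 Cdk6 probe sets (-0.01 and 0.10) had overlapping groups and limma adjusted p between 0.722 and 0.989.

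**Figure D3:**
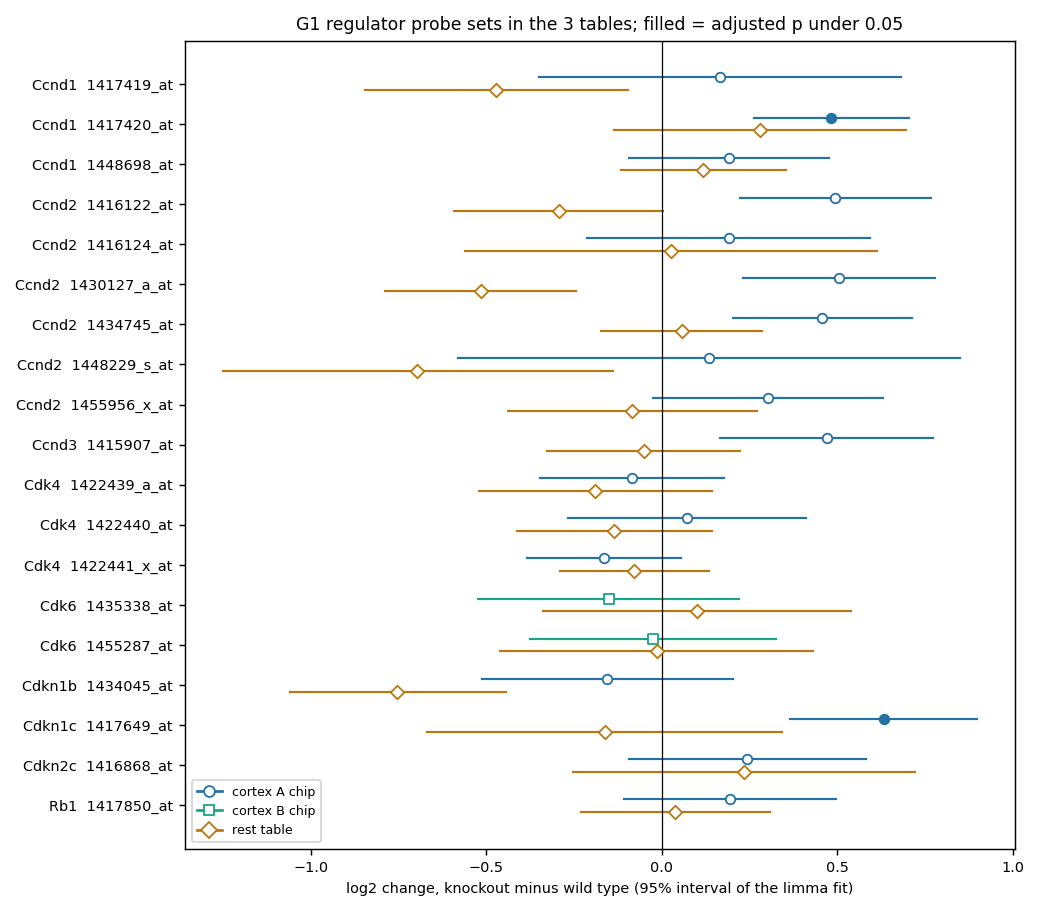
Log2 change, knockout minus wild type, of every member probe set that could be tested (points, with the 95% interval of the limma fit as lines), in cortex on the A chip, cortex on the B chip and rest. Filled points passed at an adjusted p under 0.05: Ccnd1 probe set 1417420_at (0.48) and Cdkn1c (0.63) in cortex, and none in rest.

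Whether the knockout effect differed between rest and cortex was tested as an interaction, since a call in one table and not in the other does not show a difference. Of 17 member probe sets in the joint fit of rest with the cortex A chip 0 were called, with 0.0502% called over all 11959 probe sets, and 6 had an unadjusted p under 0.05, against 10.5% of all. The largest difference was that of Ccnd2 probe set 1430127_a_at, with log2 changes of -0.52 in rest and 0.50 in cortex and a difference of -1.02 (SE 0.184, 95% interval -1.41 to -0.63, limma adjusted p = 0.079). Groups apart in opposite directions in the 2 tables, as here, were found in 1.17% of all probe sets that every array listed. The difference was called without wild-type cortex replicate 1 (limma adjusted p = 0.0288) and without knockout rest replicate 3 (0.0423). Ccnd2 probe set 1416122_at differed by -0.79 (SE 0.197, limma adjusted p = 0.177), Cdkn1c by -0.79 (SE 0.279, 0.313), Cdkn1b by -0.60 (SE 0.221, 0.341) and Ccnd3 by -0.52 (SE 0.191, 0.341). The differences were below 0 for 16 of the 17 probe sets with a median of -0.39, against 48% below 0 and a median of 0.01 over all probe sets in the fit. The 17 probe sets read 8 genes and are not independent, since Ccnd2 alone gives 6 of them. Rest and cortex were also run on different arrays, so that tissue and array type cannot be told apart in these differences. For Cdk6 the differences of rest from the cortex B chip were 0.25 (SE 0.254) and 0.01 (SE 0.252), with 0 members and 0% of 6563 probe sets called by limma, and 7.94% of all and 0 members at an unadjusted p under 0.05.

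The genes around the cyclin D step were read from lists with 1 probe set per gene. Of 24 other G1 to S regulators tested in cortex 0 rose and 1 fell, against 2.3% of all A chip probe sets called up and 0.713% called down. Their median log2 change was -0.03. The gene that fell was Mycn, a Myc family factor of neural progenitors known to promote D-type cyclin expression in mouse granule cell precursors. It read 76.9, 83.8 and 96.2 in knockout cortex, against 168, 202 and 167 in wild-type cortex, and the groups were far apart. Its log2 change was -0.94 (SE 0.133, limma adjusted p = 0.00306), and it was called in 18 of 19 other settings, the exception being the sex-marker term (limma adjusted p = 0.127). In rest Mycn read 134, 113 and 176 in knockout samples, against 162, 161 and 248 in wild-type samples, with overlapping groups (log2 change -0.39, SE 0.201, limma adjusted p = 0.557).

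Cdkn1a, which encodes the Cip/Kip inhibitor p21, was listed on all knockout cortex arrays (281, 225 and 250.3) but only on wild-type replicate 1 (193), so that it could not be tested on the A chip. In rest it read 1045, 807 and 777 in knockout samples, against 615.5, 639.7 and 632 in wild-type samples (log2 change 0.46, SE 0.111, limma adjusted p = 0.166). The knockout samples were all higher. Of the E2F factors held by the retinoblastoma family, E2f3 (-0.30) and E2f4 (-0.31) came next in rest, with limma adjusted p of 0.472 and 0.529. In rest 0 of 31 other G1 to S regulators passed in either direction, with a median of -0.03.

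Genes downstream, which E2F factors activate or which act in mitosis, did not pass in either tissue. Of 13 E2F target and DNA synthesis genes tested in cortex 0 passed (median -0.01), with the lowest p for Rrm1, a subunit of ribonucleotide reductase (log2 change 0.44, limma adjusted p = 0.0986), and Mcm3, a subunit of the replicative helicase (0.54, 0.114). Mcm4 (0.28) and Mcm6 (0.23), of the same helicase, had limma adjusted p of 0.339 and 0.393. Of 7 mitosis genes 0 passed, and all 7 had a log2 change above 0 (median 0.25), among them Cdk1, the mitotic kinase (0.55, limma adjusted p = 0.0914, blank on wild-type replicate 3), Cdc20, an activator of the anaphase-promoting complex (0.42, 0.296, on 2 arrays a genotype), Top2a, a topoisomerase of dividing cells (0.25, 0.412), and Nusap1, a spindle protein (0.21, 0.552). On the A chip 47.9% of all tested probe sets had a log2 change above 0. In rest 0 of 15 E2F target genes (median 0.02) and 0 of 12 mitosis genes (median -0.11) passed. Their lowest p values were those of Ezh2 (-0.60, limma adjusted p = 0.313) and Cdk1 (-0.20, 0.721).

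Of 13 mitogen-response genes and signalling genes that act upstream of or with cyclin D1, 4 rose in knockout cortex and 0 fell, against 2.3% of all probe sets called up, and all 13 had a log2 change above 0 (median 0.53). The list has 21 genes, of which these 13 could be tested. It was chosen with earlier results of these data known and takes 1 probe set per gene, so the shares are no test of the list. Ccn2, a matrix protein made on growth factor and YAP signals, averaged 339 ± 75.8 in knockout cortex and 149 ± 27.7 in wild-type cortex (SD, n = 3 each; log2 change 1.10, limma adjusted p = 0.00448). Jun, an AP-1 factor, averaged 271 ± 10.3 in knockout and 147 ± 39.2 in wild type (0.84, limma adjusted p = 0.0134), on probe set 1417409_at. Its other probe set, 1448694_at, did not pass (0.29, limma adjusted p = 0.303), so that Jun counts among the 4 only through the choice of probe set. Spry1 (0.57, limma adjusted p = 0.0194) and Dusp6 (0.53, 0.0272), which damp ERK signalling and are induced by it, also rose. Over 19 other settings Ccn2 was called in 19, Jun in 15, Spry1 in 14 and Dusp6 in 13, and the count for the list was 1 to 5. In rest 0 of 19 passed (median 0.11), with Etv4, an ETS factor (0.53, limma adjusted p = 0.155), and Fos, an AP-1 factor (0.49, 0.254), at the lowest p. Among 10 cell cycle exit and quiescence factors in cortex 1 rose and 0 fell, against the same 2.3% of all probe sets called up, with a median of 0.00. The 1 that rose was the transcription factor Klf4 (0.83, limma adjusted p = 0.0298, called in 11 of 18 other settings that tested it). In rest 0 of 14 passed (median -0.16), with Zbtb18, a repressor of migrating neurons, at -0.70 (limma adjusted p = 0.352). On the B chip 0 genes of these 5 lists passed, with limma adjusted p from 0.153 for Fosl2, an AP-1 factor (0.66), upwards.

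**Figure D4:**
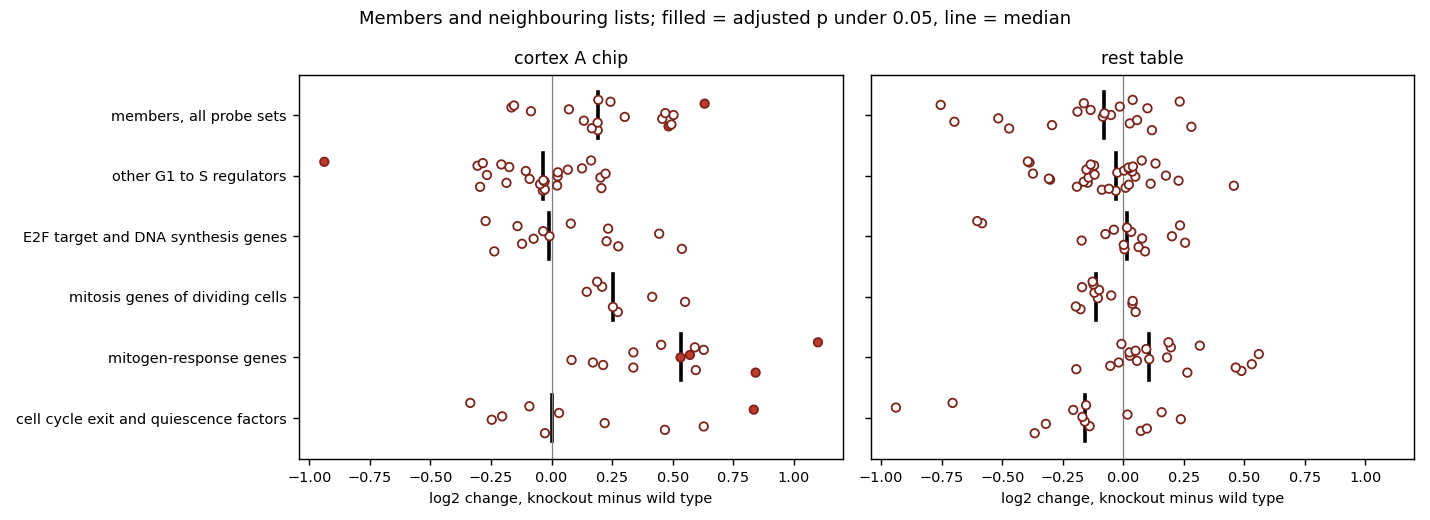
Log2 change, knockout minus wild type, of the member probe sets and of the genes of 5 neighbouring lists (1 point per probe set or gene, the vertical bar its median, vertical spread within a row only to separate points), in cortex on the A chip and in rest. Filled points passed at an adjusted p under 0.05: 2 members, Mycn (-0.94), 4 mitogen-response genes and Klf4 in cortex, and none in rest.

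Markers of other cell types moved with genotype in the same arrays. Over all A chip probe sets tested 2.3% were called up and 0.713% down. The marker lists were chosen with earlier results of these data known, so these shares are no test of the lists. In cortex 12 of 16 mural and meningeal markers rose and 0 fell (median log2 change 1.28). The summed level of 14 of the markers was 10180 to 11980 in knockout arrays, against 4167 to 4817 in wild-type arrays. The genes that rose are collagens and other genes of fibroblasts and meninges, such as Col3a1 (2.01), Slc6a13 (1.79) and Dcn (1.25), and Pdgfrb (1.16), a receptor of pericytes and fibroblasts. The pericyte markers Rgs5 (0.31, limma adjusted p = 0.0814), Abcc9 (0.42, 0.146) and Cspg4 (-0.35, 0.226), which oligodendrocyte precursors also express, did not pass, and Acta2, Tagln, Myh11 and Kcnj8, of smooth muscle and pericytes, were blank on every A chip array. Of 12 markers of microglia and macrophages 8 rose (sum of 10 genes 4358 to 4904 in knockout, 2637 to 3001 in wild type), of 12 endothelial markers 4 rose (sum of 11 genes 3214 to 3683, against 2418 to 2675 in wild type) and of 14 astrocyte markers 4 rose (sum 13400 to 16270, against 11340 to 12370 in wild type). Pecam1 and Trem2, defining markers of endothelium and microglia, were blank throughout. These shifts stand beside the rise of Cdkn1c, that of Ccnd1 on 1 probe set, and the higher Ccnd2 and Ccnd3 signals. The part of the shifts in those values was not tested. On the B chip, from which Cdk6 was read, Tbx18, a mural and meningeal factor (2.23), rose and the oligodendrocyte genes Gpr17 (-1.63) and Bcas1 (-1.51) fell, and 0 other markers passed. Over 19 other settings the mural and meningeal count in cortex was 9 to 13, that of microglia and macrophages 2 to 9, that of endothelium 0 to 5 and that of astrocytes 1 to 5.

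Oligodendrocyte markers fell in part in the same arrays. In cortex 2 of 9 markers of oligodendrocyte precursors fell, against 0.713% of all A chip probe sets called down (sum of 8 genes 3446 to 4416 in knockout, 4910.0 to 5125 in wild type). They were C1ql1 (-0.66) and Olig1 (-0.50), while Pdgfra (0.02, limma adjusted p = 0.942) was the 1 marker above 0. Of 4 myelin markers 2 fell, Mbp and Ugt8a (sum of 3 genes 641 to 1015 in knockout, 2148 to 2749 in wild type). That sum is of Mbp (mean 195 in knockout, 1757 in wild type), Cnp (549 and 723, not called) and Cldn11 (92.1 and 64.2, not called), so its fall is mostly that of Mbp. Of 9 markers of cortical projection neurons 1 fell (Mef2c, -0.37), and of 7 interneuron markers 3 fell (Dlx1, Lhx6 and Gad1). Over 19 other settings these counts were 0 to 3 for precursors (0 without wild-type replicate 1 and with the sex-marker term), 1 to 2 for myelin, 0 to 1 for projection neurons (0 without knockout replicate 2, without an intensity trend and with the sex-marker term) and 1 to 3 for interneurons (1 with the sex-marker term or without knockout replicate 1). In rest, where Cdkn1b read lower, 3 of 10 precursor markers fell, against 0.168% of all probe sets called down. They were Gpr17, Sox10 and Olig2, and the sum of the 10 was 7488 to 10070 in knockout and 12740 to 13850 in wild type. Of 9 myelin markers 1 was called down, Mal (log2 change -2.33, limma adjusted p = 0.00835), against 0.168% of all probe sets in rest. All 9 were below 0, against 49.8% of all, with a sum of 8 genes of 1629 to 9212 in knockout and 15480 to 16020 in wild type. Mural and meningeal markers in rest rose in 7 of 19, against 0.145% of all probe sets called up. The sum of 18 of these genes was 15380 to 16540 in knockout and 6938 to 12260 in wild type. The markers called were Tbx18 (2.09), the mural and meningeal factor, and fibroblast and meningeal genes, among them Slc6a13 (1.73), Col3a1 (1.40) and Lum (1.30). The pericyte markers Rgs5 (-0.03), Abcc9 (-0.11) and Cspg4 (-0.14) were the 3 below 0 and did not pass. Over 19 other settings the counts in rest were 0 to 4 for precursor, 0 to 7 for myelin and 0 to 8 for mural and meningeal markers. The part of these lists, and of the granule cell markers that follow, in the Cdkn1b and Ccnd2 values was not tested.

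Markers of cerebellar granule cells, whose precursors are known to use Ccnd1, Ccnd2 and Mycn, varied widely in rest. Of 10 tested 0 passed, and all 10 were below 0 (median -0.34), against 49.8% of all probe sets in rest. Their sum over 8 genes was 4853 to 6140 in knockout samples, against 5295 to 11070 in wild-type samples. Neurod1, a factor of maturing granule cells, read 121, 196 and 583 in knockout, against 716, 322 and 2396 in wild type on probe set 1426413_at. The groups overlapped, and the wild-type samples differed widely among themselves. In cortex 0 of 5 of these markers passed on their brightest probe sets, while another Neurod1 probe set, 1426413_at, fell (-0.98, limma adjusted p = 0.0366). Atoh1, Barhl1, Cbln3 and Cntn2 were blank on every A chip array. In rest, 0 of 13 endothelial, 0 of 11 microglial and macrophage, 0 of 14 astrocyte, 0 of 10 projection neuron and 0 of 10 interneuron markers passed.

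The patterns nearest to the called members were sought over the 12 arrays of the cortex A chip and rest, each probe set centred within its table, by the root mean square difference of log2 signals. For Ccnd1 probe set 1417420_at the nearest genes were Rps27l (0.108), Cd164 (0.111) and Clic1 (0.115), where the probe set's own root mean square deviation was 0.272. For its brighter probe set 1448698_at they were Rfk (0.0688), Dazap2 (0.0755) and Bcl2 (0.0886), against an own deviation of 0.154. For Cdkn1c they were 1810058I24Rik (0.117), Clic4 (0.122) and Dab2 (0.13), against an own deviation of 0.331. The 2 Ccnd1 probe sets shared none of these 3 nearest genes. The values share genotype, arrays and scaling, so nearness is a description only.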

How the data were processed

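The members, gene lists and rules for named genes were chosen with earlier results of these data known. Every member probe set is named. In the lists around the cyclin D step up to 4 genes per list are named: called ones by size of change, otherwise by lowest p. Among the cell type markers, genes outside this rule are named as well, and larger called changes are in part left out. The deposited intensity values are linear and were made with MAS5, per the submitters' processing notes (version not given in the sources used here), from TRIZOL total RNA with standard Affymetrix labelling, per the labels. Why cells are blank is not stated. Without control probe sets, arrays of a table were brought to the same 2%-trimmed mean of the probe sets that all 6 list, by factors of 0.9477 to 1.059, and 16 was added before log2. Tests used limma 3.58.1 in R 4.3.3 (lmFit, eBayes with an intensity trend) on 12065, 7838 and 21407 probe sets, with Benjamini-Hochberg adjustment. They were tried on simulated data with the spread of each table. A true log2 change of 0.5 was called for 45 of 100 probe sets on the A chip, 3 on the B chip and 15 in rest. For a true change of 1 the counts were 84, 33 and 60. A change of such size can thus go uncalled, most of all on the B chip. Rest was set against cortex through the interaction of a joint fit. Symbols came from the array annotation, updated through RefSeq gene identifiers. Levels were not compared between tables. The genome build is not given in the sources used here. A sex-marker term, a replicate block, other scalings, offsets and filters, and leaving out each array were tried.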

Additional observations from a re-analysis of the deposited data

Results flagged for a closer look

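Ccnd2 probe set 1430127_a_at was singled out because every knockout array lay above the wild-type arrays in cortex and every knockout array lay below them in rest. The difference of the log2 changes, rest minus cortex, was -1.02 (SE 0.184) and was tested (limma adjusted p = 0.079). Of 10886 probe sets that every array of both tables lists, 1.17% had groups apart in opposite directions in this way. The Ccnd2 probe set 1434745_at, with log2 changes of 0.06 in rest and 0.46 in cortex, was apart only in cortex.

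Ccnd2 probe set 1416123_at entered no comparison, because it was blank on all wild-type cortex arrays. It was listed on 2 of the 3 knockout cortex arrays, at 37.2 and 48.5, and on 0 arrays in rest.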

How the results depend on the processing

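Of the 2 members called in cortex, Cdkn1c passed in 14 and Ccnd1 in 11 of 19 other settings, with log2 changes of 0.50 to 0.70 and 0.40 to 0.53. The count of called members on the A chip was 1 with quantile normalization (Cdkn1c), 0 with the sex-marker term and 5 at an adjusted p of 0.10, where 3 Ccnd2 probe sets joined. Leaving out 1 array gave counts from 0 to 2. A count of 2 was not always the same genes: it stood for 2 Ccnd2 probe sets without wild-type replicate 1, for Cdkn1c and a Ccnd2 probe set without wild-type replicate 3, and for Cdkn1c and Ccnd2 probe set 1416122_at with the replicate block (Ccnd1 adjusted p = 0.0635 there). Whether replicate numbers mark pairs was not settled, since only same-numbered arrays were correlated, with no other arrays to set them against. Their deviations correlated at -0.00876 (cortex A chip, replicate 3) to 0.251 (rest, replicate 3), and only the former value was below 0. With the block the A chip had 294 calls in all, against 364 without it, the B chip 12 against 22, and rest 143 against 67; it changed no other member call. In rest the member count was 0 in 19 settings and 1 at an adjusted p of 0.10 (Cdkn1b); on the B chip it was 0 throughout. For the difference between rest and cortex it was 1 at an adjusted p of 0.10 and 0 to 1 without single arrays. Over all probe sets and 19 other settings the calls ran from 82 (sex-marker term) to 385 on the A chip, 9 to 58 on the B chip, 10 (sex-marker term) to 143 in rest and 3 to 28 for the difference.

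No called value changed its sign. Signs changed for values that were not called. With the sex-marker term these were, in cortex, Ccnd1 1417419_at (-0.10), Cdk4 1422440_at (-0.26), Cdkn1b (0.14) and Rb1 (-0.069), and in rest Ccnd3 (0.047), Cdk4 1422439_a_at (0.021) and 1422440_at (0.036), Cdk6 1455287_at (0.15) and Cdkn1c (0.23). Cdk6 1455287_at was also at 0.018 (array weights) and 0.019 (quantile) in cortex, and at 0.017 (array weights), 0.00178 (median centring) and 0.038 (quantile) in rest, and Ccnd2 1416124_at at -0.055 (array weights) in rest. Without single arrays the log2 changes in cortex ran from -0.082 to 0.30 for Ccnd1 1417419_at, -0.22 to 0.45 for Ccnd2 1448229_s_at, -0.023 to 0.24 for Cdk4 1422440_at and -0.099 to 0.026 for Cdk6 1455287_at. In rest they ran from -0.11 to 0.20 for Ccnd2 1416124_at, -0.00453 to 0.14 for 1434745_at, -0.23 to 0.096 for 1455956_x_at, -0.12 to 0.060 for Ccnd3, -0.071 to 0.27 for Cdk6 1435338_at, -0.15 to 0.18 for 1455287_at, -0.36 to 0.10 for Cdkn1c and -0.042 to 0.15 for Rb1. The rest minus cortex difference of Cdkn2c was 0.020 (median centring), 0.00433 (no scaling) and 0.013 (offset of 64), and -0.19 to 0.21 without single arrays. Those of Ccnd1 1448698_at (-0.21 to 0.037), Ccnd2 1416124_at (-0.30 to 0.00720), Cdk4 1422439_a_at (-0.21 to 0.036) and 1422441_x_at (-0.00324 to 0.16) and Cdk6 1455287_at (-0.13 to 0.21) also crossed 0 without single arrays. The cause was not tested.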
